A study of Mus musculus with 8 samples.

Results

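The proteasome genes of endogenous CD8+ T cells were read out by RNA sequencing in an IL-18Rα hi-enriched fraction and in the cells that the beads left behind. Genes were taken by name, as every Psma, Psmb, Psmc, Psmd, Psme, Psmf or Psmg symbol followed by a number, and 50 of the 47493 genes in the expression table were found. The 4 pseudogene names carrying the ending -ps were left out. The name pattern also took in *Psmc3ip*, which encodes a meiotic recombination partner and not a proteasome subunit, and *Psme2b*, a copy of *Psme2*.

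All 8 libraries came from 4 C57BL/6 female mice aged 6 to 8 weeks, and both groups therefore carried the same treatments. Each mouse received 200000 B16F10 melanoma cells, 300 mg/kg cyclophosphamide on day 3, 2000000 gp100-specific Thy1.1 Pmel-1 CD8+ T cells on day 5 and 10000 IU of IL-2 daily for 3 days. The same mice were given 200 μg of the CD4-depleting antibody GK1.5 weekly from day 10. On day 25, Thy1.1-negative CD8+ T cells of inguinal lymph nodes and spleen were passed over magnetic beads against IL-18Rα, which gave 4 IL-18Rα hi-enriched libraries and 4 libraries of the flow-through, used as the control. The flow-through is a mixture defined by what the beads did not hold, and no group without the antibody or without cyclophosphamide entered the comparison. Expression was given in FPKM, a fragment count divided by transcript length and by the mapped fragments of the library, and the number of fragments behind each value is not known from the table. In such bulk samples, fewer cells of a type and less RNA per cell cannot be told apart.

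The proteasome degrades proteins tagged with ubiquitin. Its barrel, the 20S core, stacks rings of α subunits around rings of β subunits, of which β1, β2 and β5 cut the substrate, and the 19S cap of ATPases and non-ATPase subunits recognizes, unfolds and feeds it. Interferon-γ exchanges the cutting subunits for β1i (*Psmb9*), β2i (*Psmb10*) and β5i (*Psmb8*), forming the immunoproteasome, whose products favour loading onto MHC class I, and lymphocytes carry much of it at rest.

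Of the 50 genes, 49 passed the filter of a mean of at least 1 FPKM. In a limma model over 12166 genes, 1 of the 49 (2.04%) was called higher in the enriched cells at an adjusted p under 0.05, against 14.1% of all genes tested, and 5 of the 49 (10.2%) were called lower, against 13.7% of all genes tested. At an unadjusted p under 0.05 there were 3 higher and 8 lower, against 2433 and 2594 of the 12166 genes tested. The gene called higher was *Psmb8*, and those called lower were *Psma8*, *Psmd7*, *Psmg1*, *Psmg2* and *Psmg3*. With the replicate number as a block, 3 genes were called higher (6.12%, against 22.2% of all genes) and 11 lower (22.4%, against 22.7% of all genes). The median log2 fold change was −0.06 over the 49 genes and −0.02 over all genes tested.

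Factors known to drive proteasome genes read short DNA motifs. Promoters are shown for a choice of the named genes, each of which held a motif match. Interferon-γ signalling acts on the gamma-activated sequence (TTCNNNGAA). Interferon regulatory factors bind an element whose core was searched as GAAANNGAA, and NRF1 and NRF2, encoded by *Nfe2l1* and *Nfe2l2*, the antioxidant response core TGACNNNGC. RefSeq promoter entries on GRCm38.p6 matched 42 of the 50 genes, and the 250 bases before the start were searched on both strands. *Psma8*, *Psmb1*, *Psmb2*, *Psmb7*, *Psmc3*, *Psmd3*, *Psmd7* and *Psmg2* had no entry. *Psmb9*, *Psmb10* and *Psmg3* had an entry but none of the gamma-activated, interferon or antioxidant letters, and their promoters are not shown. *Psmb8* and *Psmg1*, one called higher and the other lower, each held the gamma-activated letters, and *Psmb5* and *Psmb6*, the standard counterparts of *Psmb8* and *Psmb9*, the antioxidant letters. Capitals mark these matches in the sequences, which run 5′ to 3′ on the gene's strand. The *Psmb8* window lay wholly in an exon of a longer annotated transcript, so the 29 bases around its match, 97 to 89 bases before the start, are given, from chr17:34198088-34198116 on the plus strand.
Psmb8: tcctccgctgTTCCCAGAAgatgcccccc
The *Psmg1* window lay at chr16:95990961-95991210 on the minus strand, with no annotated exon in it.
Psmg1: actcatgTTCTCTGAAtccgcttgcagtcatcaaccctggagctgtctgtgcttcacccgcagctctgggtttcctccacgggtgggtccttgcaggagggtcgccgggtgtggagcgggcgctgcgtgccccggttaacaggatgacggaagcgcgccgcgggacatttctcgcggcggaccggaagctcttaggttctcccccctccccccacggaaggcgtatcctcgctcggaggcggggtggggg
The *Psmb5* stretch before its first annotated exon lay at chr14:54618023-54618245 on the minus strand.
Psmb5: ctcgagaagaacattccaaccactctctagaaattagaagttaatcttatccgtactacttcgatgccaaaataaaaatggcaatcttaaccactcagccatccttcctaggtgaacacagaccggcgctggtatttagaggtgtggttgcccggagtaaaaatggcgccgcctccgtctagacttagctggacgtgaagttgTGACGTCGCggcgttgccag
The *Psmb6* window lay at chr11:70525107-70525356 on the plus strand.
Psmb6: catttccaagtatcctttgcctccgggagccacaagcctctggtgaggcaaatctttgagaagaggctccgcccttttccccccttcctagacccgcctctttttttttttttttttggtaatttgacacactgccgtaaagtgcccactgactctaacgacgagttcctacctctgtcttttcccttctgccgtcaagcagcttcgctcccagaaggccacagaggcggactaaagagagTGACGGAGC

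The motif letters were about as frequent in these promoters as in all 32851 promoter entries. The 42 genes had 45 entries, and a gene counted if any of its entries matched, while the share of all promoters is per entry. The gamma-activated sequence occurred in 2 of 42 genes (4.76%) and in 7.02% of all promoters. The interferon core occurred in 3 of 42 (7.14%; *Psmb3*, *Psmd4* and *Psmd9*) and in 7.13% of all promoters. The antioxidant core occurred in 5 of 42 (11.9%; *Psmb5*, *Psmb6*, *Psmc6*, *Psmd9* and *Psmd12*) and in 10.2% of all promoters, and the CCAAT box bound by NF-Y in 15 of 42 (35.7%) and in 33.8%.

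*Psmb8*, encoding the chymotrypsin-like β5i (ENSMUSG00000024338; chr17:34197721-34201454, plus strand, in the MHC region), was the most abundant of the 6 catalytic subunits in the mean of both groups. It measured 168, 267, 239 and 264 FPKM in flow-through replicates 1 to 4 and 319.6, 322, 305 and 326 FPKM in the corresponding enriched replicates. Every enriched library lay above every flow-through library, and flow-through replicate 1 was the lowest library. The mean rose from 234 ± 45.9 to 318 ± 9.47 FPKM (SD, n = 4), a log2 change of 0.46 (SE of 0.14, limma adjusted p = 0.0427). Without flow-through replicate 1 the log2 fold change was 0.31 (limma adjusted p = 0.0120). The call was lost when flow-through replicate 3 (adjusted p = 0.0875) or any one enriched replicate was left out (adjusted p from 0.0786 to 0.1). In these fits the log2 fold change of *Psmb8* lay between 0.449 and 0.482. Over all genes tested, they called 1124 to 1560 higher, against 1720 with every library.

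*Psmb9*, encoding the caspase-site replacement β1i (ENSMUSG00000096727; chr17:34181987-34187764, minus strand), measured 73.4, 125, 106 and 123 FPKM in the flow-through and 136, 139, 137 and 141 FPKM in the enriched cells. The groups did not overlap here either, and flow-through replicate 1 was again the lowest library. The log2 fold change of 0.40 (SE 0.16) did not pass the limma test (adjusted p = 0.0916), but did with the replicate block (adjusted p = 0.0384) and without flow-through replicate 1 (0.23, adjusted p = 0.0484). *Psmb9* and the peptide transporter gene *Tap1* start on opposite strands and share 212 exon bases, and the table does not state whether strand was used in the FPKM.

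*Psmb10*, encoding the trypsin-like β2i on another chromosome (chr8:105935735-105938444), measured 90.1, 117, 121 and 119 FPKM in the flow-through and 122, 132, 118 and 128 FPKM in the enriched cells. The groups overlapped, with flow-through replicate 1 again lowest, and the log2 change was 0.17, or 0.07 without that library (SE of 0.10, limma adjusted p = 0.247 with all libraries).

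The standard catalytic subunits had log2 fold changes closer to 0. *Psmb5* (β5) measured 195, 147, 169 and 139 FPKM in the flow-through and 179, 159.6, 165 and 151 FPKM in the enriched cells, with a log2 fold change of 0.02 (95% interval −0.24 to 0.28). *Psmb6* (β1) measured 217, 169, 198 and 170.3 FPKM against 198, 179, 176 and 163 FPKM (−0.07, interval −0.30 to 0.17). *Psmb7* (β2) measured 179.9, 132, 168 and 132 FPKM against 166, 145, 154 and 141 FPKM, with an interval from −0.28 to 0.27. Flow-through replicate 1, the lowest library for the 3 immunoproteasome subunits, was the highest for the 3 standard ones, as the plot of the 6 catalytic subunits shows.

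**Figure D1:**
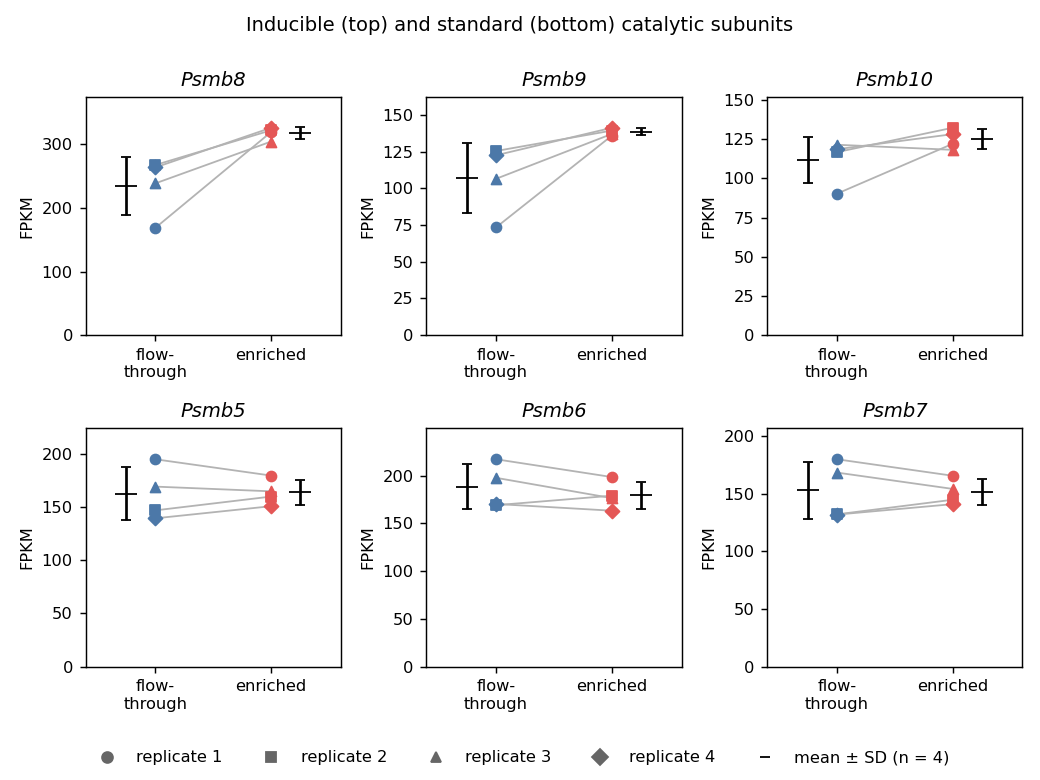
FPKM of the 6 catalytic subunits in each of the 8 libraries, with flow-through and enriched libraries of the same number joined and bars at the group means. *Psmb8* and *Psmb9* lay higher in each enriched library than in any flow-through library, while *Psmb5*, *Psmb6* and *Psmb7* overlapped.

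The inducible and the standard subunit of 1 catalytic site were then set against each other within each library, which makes the comparison independent of library scaling. The ratio of *Psmb8* to *Psmb5* was 0.865, 1.82, 1.41 and 1.89 in the flow-through and 1.78, 2.02, 1.85 and 2.17 in the enriched cells. Only in flow-through replicate 1 was the standard subunit the more abundant of this pair. The ratio of *Psmb9* to *Psmb6* was 0.338, 0.742, 0.539 and 0.719 against 0.685, 0.779, 0.777 and 0.866, and the ratio of *Psmb10* to *Psmb7* was 0.501, 0.884, 0.721 and 0.899 against 0.737, 0.914, 0.767 and 0.909. Each ratio was higher in the enriched member of all 4 pairs, and for each the groups overlapped.

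The differences of the mean log2 ratios were 0.44 at the β5 site, 0.47 at β1 and 0.18 at β2. Exact two-sided permutation of the 4 against 4 libraries gave p = 0.143, 0.143 and 0.4, or 0.214, 0.214 and 0.4 after Benjamini-Hochberg adjustment over the 3 sites, with 0.0286 the smallest p that the design allows. The exact sign-flip test within pairs gave p = 0.125 at each site, which is the smallest that 4 pairs allow. Without flow-through replicate 1 the differences were 0.20, 0.23 and −0.0046. The 3 inducible subunits together made up 35.9, 53.2, 46.6 and 53.4% of the summed FPKM of the 6 subunits in the flow-through and 51.5, 55.1, 53.1 and 56.7% in the enriched cells. The means were 47.3 ± 8.2% and 54.1 ± 2.27% (SD, n = 4), and the groups overlapped. Flow-through replicate 1 was the lowest library and flow-through replicate 3 the next lowest.

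**Figure D2:**
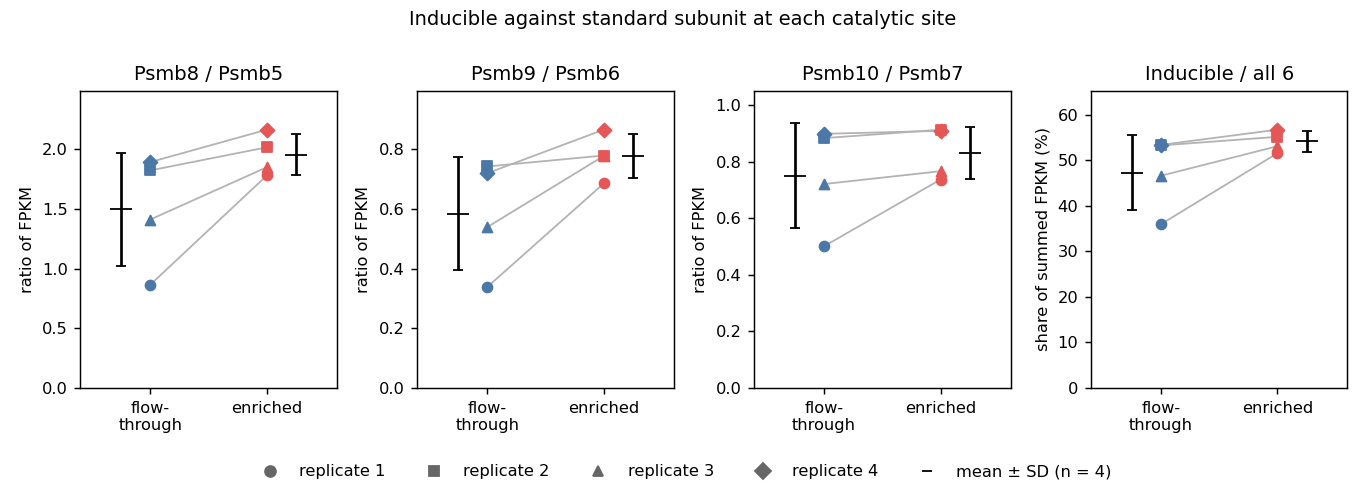
Ratio of each immunoproteasome subunit to the standard subunit of the same catalytic site in each library, on a linear axis, with libraries of the same number joined. The last panel gives the share of the inducible subunits in the summed FPKM of all the catalytic subunits, in percent. Every line rises from flow-through to enriched cells, and the steepest in each panel starts at flow-through replicate 1.

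The 14 standard subunits of the 20S core and the 17 subunits of the 19S cap taken by the name pattern had mostly small differences. Of these 31 genes, 26 had log2 fold changes within 0.2 of 0, and for 27 the 95% interval lay within 0.5 of 0. The SD of the 31 log2 fold changes was 0.149. Within the α ring, which gates the barrel, *Psma7* was the most abundant (262 ± 20.9 and 243 ± 13.1 FPKM) and *Psma5* the least (127 ± 23.8 and 101 ± 8.23 FPKM), where the first value is the flow-through and the second the enriched mean (SD, n = 4). Among β subunits outside the cutting sites, *Psmb3* reached 278 ± 35.2 and 287 ± 27.2 FPKM. *Psma5* was lower by 0.32 on the log2 scale (limma adjusted p = 0.103), and passed only with the replicate block (adjusted p = 0.0145).

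The 6 ATPases, which unfold the substrate, ranged from *Psmc6* (74.3 ± 11.4 and 67.0 ± 5.90 FPKM) to *Psmc3* (119.9 ± 19.6 and 117 ± 10.2 FPKM), and 0 of 6 were called by limma with or without the block, or passed an unadjusted p under 0.05. Among the non-ATPase subunits the highest mean over the 8 libraries was that of *Psmd8* (119 ± 4.67 and 135 ± 8.62 FPKM) and the lowest that of *Psmd12* (53.1 ± 10.2 and 50.04 ± 2.88 FPKM). *Psmd8* did not overlap between the groups but had a log2 fold change of only 0.18 (limma adjusted p = 0.0851; 0.0441 with the block), and *Psmd3* had a log2 fold change of −0.28 (adjusted p = 0.211; 0.0302 with the block).

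*Psmd7*, encoding Rpn8, the partner of the deubiquitinase Rpn11 in the lid, was the one standard subunit called without the block. It measured 121, 75.9, 109.8 and 79.7 FPKM in the flow-through and 76.6, 58.7, 68.7 and 57.5 FPKM in the enriched cells. It was lower in the enriched member of each pair, although enriched replicate 1 was above flow-through replicate 2. The mean went from 96.6 ± 22.2 to 65.4 ± 9.02 FPKM (log2 change −0.54 with an SE of 0.17, limma adjusted p = 0.0456), and the call was lost without flow-through replicate 1 or 3 or enriched replicate 2, 3 or 4 (adjusted p from 0.0781 to 0.121), and also with median scaling (0.0553), no filter (0.0828) or no variance trend (0.0512). Over all genes tested, 940 to 1588 were called lower in these leave-one-out fits, against 1664 with every library. *Psmd14*, encoding Rpn11 itself, had a log2 fold change of −0.02 (interval −0.24 to 0.20).

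The levels of the standard subunits followed the replicate number in both fractions. In the flow-through, replicates 1 and 3 were both above replicates 2 and 4 for 31 of the 31 subunits, and in the enriched cells for 29 of 31. The share of all genes with this order was not computed. Of the marker lists given below, the summed erythroid and proliferation genes had the same order in both fractions, and the other lists did not. The median level of the 20S subunits was 216, 169, 195 and 167 FPKM in the flow-through and 199, 173, 183 and 165 FPKM in the enriched cells. The median of the 19S subunits was 107, 81.6, 103 and 79.7 FPKM against 99.9, 85.7, 90.9 and 81.3 FPKM. The ratio of the 19S to the 20S median stayed between 0.477 and 0.528 in the flow-through and between 0.493 and 0.503 in the enriched cells. All members together made up 0.738 to 0.940% of the summed FPKM of a flow-through library and 0.762 to 0.912% of an enriched one.

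**Figure D3:**
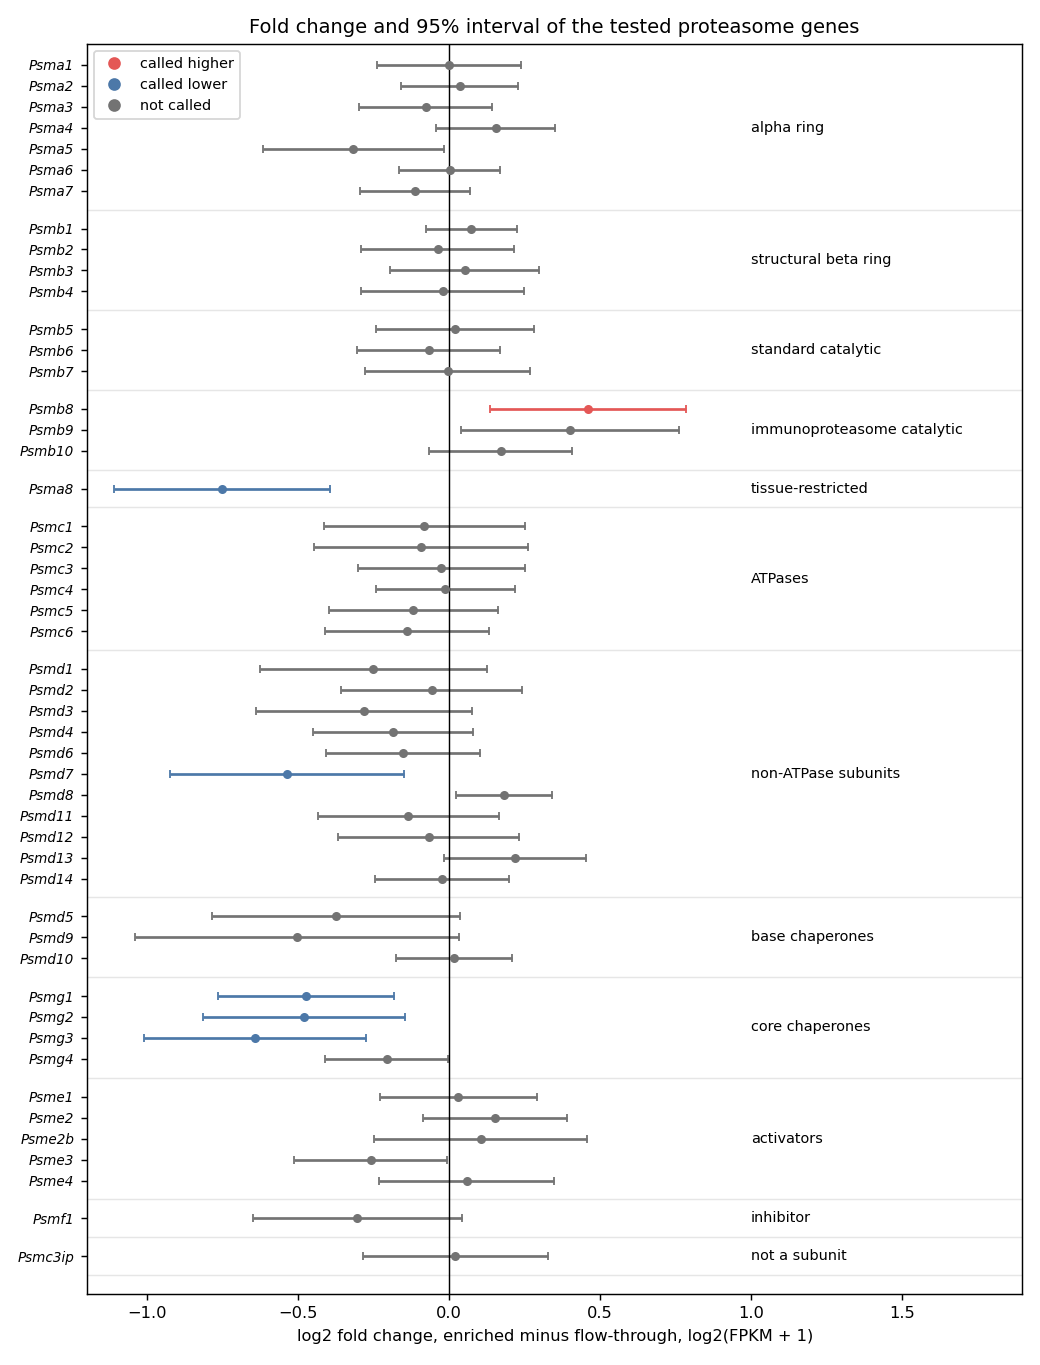
Log2 fold change (enriched minus flow-through, on log2(FPKM + 1)) with its 95% interval for the 49 tested genes, grouped by role. Colours mark genes called higher, called lower or not called at an adjusted p under 0.05. The standard subunits cluster near 0, *Psmb8* lies to the right, and *Psmg1*, *Psmg2*, *Psmg3*, *Psmd7* and *Psma8* lie to the left.

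Most of the chaperone genes of α-ring assembly were lower in the enriched cells. PAC1 and PAC2, encoded by *Psmg1* and *Psmg2*, and PAC3 and PAC4, encoded by *Psmg3* and *Psmg4*, work as heterodimers and leave the finished particle. Of these 4 genes 3 were called lower, against 13.7% of all genes tested, and all 3 showed no overlap between the groups. Over all members, 4 did not overlap in the lower direction (8.16%, against 15.9% of all genes) and 3 in the higher direction (6.12%, against 16.4% of all genes).

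*Psmg1* measured 53.8, 43.7, 53.3 and 36.9 FPKM in the flow-through and 35.5, 29.98, 34.5 and 32.7 FPKM in the enriched cells, and fell from 46.9 ± 8.13 to 33.2 ± 2.44 FPKM (log2 change −0.47 with an SE of 0.13, limma adjusted p = 0.0262). *Psmg2* measured 79.3, 52.8, 66.3 and 50.1 FPKM against 49.0, 40.4, 43.4 and 41.7 FPKM (−0.48, SE 0.15; limma adjusted p = 0.0409). *Psmg3* measured 54.7, 31.3, 45.2 and 38.0 FPKM against 29.3, 26.0, 26.2 and 23.5 FPKM (−0.64, SE 0.16; limma adjusted p = 0.0202). All 3 had their highest level in flow-through replicate 1, and each call was lost when flow-through replicate 3 or enriched replicate 2, 3 or 4 was left out, with adjusted p from 0.0509 to 0.107; that of *Psmg2* was also lost without flow-through replicate 1 (adjusted p = 0.0503). Over all genes tested, 940 to 1117 were called lower without flow-through replicate 3 or enriched replicate 2, 3 or 4. With every library the number was 1664. *Psmg4* measured 42.2, 44.8, 42.2 and 43.4 FPKM in the flow-through and 43.3, 38.3, 34.2 and 34.0 FPKM in the enriched cells. Enriched replicate 1 lay within the flow-through range (log2 fold change −0.21, limma adjusted p = 0.115). Without that library, *Psmg4* passed at −0.28 (adjusted p = 0.0395).

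*Pomp*, outside the name pattern, encodes the maturation factor that guides β-ring assembly, and went the other way. It measured 107, 108, 117 and 109 FPKM in the flow-through and 141, 129.6, 133 and 132 FPKM in the enriched cells. All enriched libraries were above all flow-through libraries, and the flow-through spread was small (110.1 ± 4.77 against 134 ± 5.14 FPKM; log2 fold change 0.28, limma adjusted p = 0.0144).

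**Figure D4:**
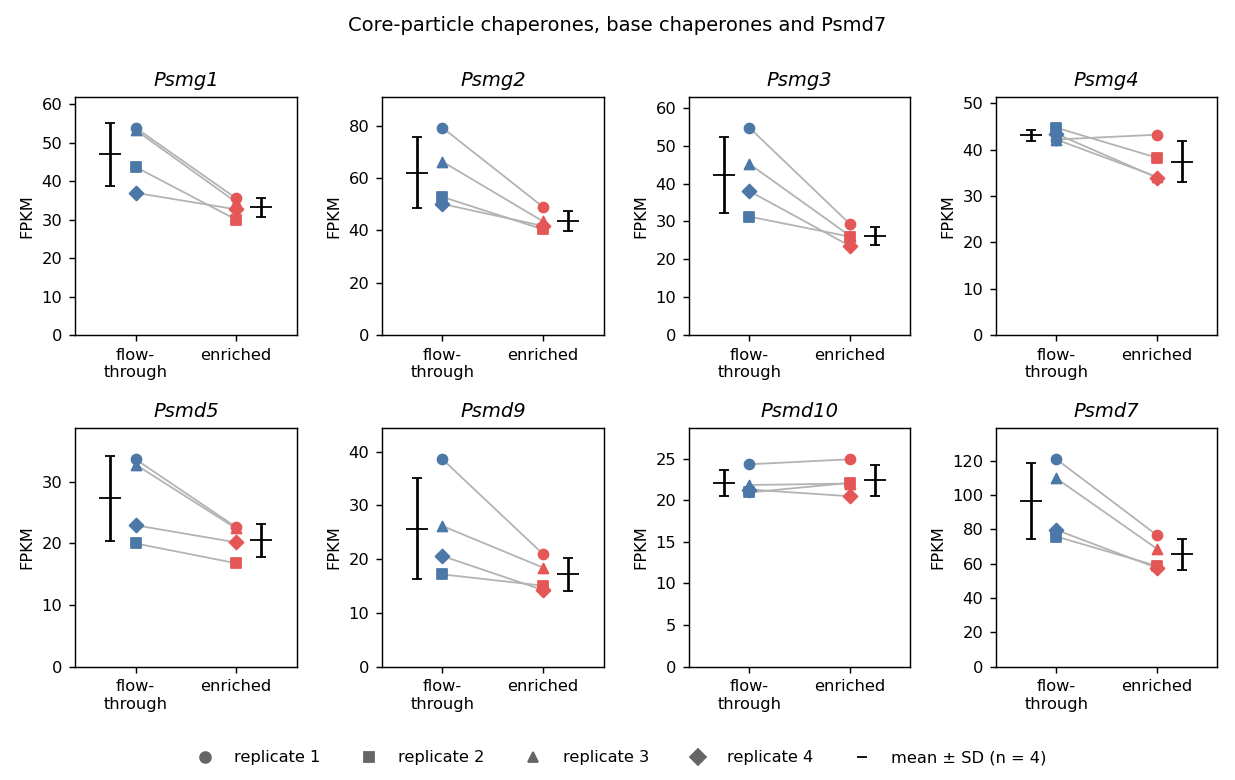
FPKM of the core chaperone genes *Psmg1* to *Psmg4*, of the base chaperone genes *Psmd5*, *Psmd9* and *Psmd10*, and of *Psmd7* in each library. Libraries of the same number are joined, with bars at the group means. *Psmg1*, *Psmg2* and *Psmg3* lie lower in every enriched library than in any flow-through library, while the other genes shown overlap.

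The chaperones that assemble the base of the 19S cap, *Psmd5*, *Psmd9* and *Psmd10*, were not called without the block. *Psmd9* (p27) ranged from 17.2 to 38.6 FPKM in the flow-through and from 14.2 to 20.9 FPKM in the enriched cells, with its highest value in flow-through replicate 1 (log2 fold change −0.50; limma adjusted p = 0.141, and 0.0112 with the block). *Psmd5* (S5b) ranged from 20.005 to 33.7 against 16.8 to 22.6 FPKM (−0.37; adjusted p = 0.152, and 0.0145 with the block). *Psmd10* (gankyrin) was at 22.1 ± 1.53 and 22.4 ± 1.86 FPKM (0.02).

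The activators bind the ends of the core in place of the cap. The interferon-inducible PA28 subunits *Psme1* and *Psme2* were at 239.8 ± 37.7 and 225 ± 28.6 FPKM in the flow-through and at 243 ± 7.75 and 249 ± 15 FPKM in the enriched cells. Their log2 fold changes of 0.03 (interval −0.23 to 0.29) and 0.15 (interval −0.09 to 0.39) did not pass the test, and flow-through replicate 1 was the lowest library for both. The copy *Psme2b*, with which reads of *Psme2* could be shared, was at 6.52 ± 1.36 and 7.01 ± 0.918 FPKM. *Psme3*, encoding the nuclear PA28γ, was at 113 ± 17.9 and 93.8 ± 3.34 FPKM (−0.26; limma adjusted p = 0.114, and 0.0402 with the block). *Psme4*, encoding PA200, was at 18.6 ± 3.53 and 19.2 ± 0.997 FPKM (0.06). *Psmf1*, encoding the inhibitor PI31, was at 39.3 ± 8.85 and 31.2 ± 3.07 FPKM (−0.30; adjusted p = 0.165, and 0.0254 with the block).

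Both tissue-restricted subunits were low. *Psma8*, the α4s subunit known from male germ cells, measured 1.91, 2.01, 1.27 and 1.24 FPKM in the flow-through and 0.383, 0.625, 0.749 and 0.410 FPKM in the enriched cells, so that the groups did not overlap. Its log2 change was −0.75 (SE of 0.16, limma adjusted p = 0.0101), or −1.42 with a pseudocount of 0.1, since at this level the pseudocount sets the size. Its mean of 1.61 ± 0.407 FPKM in the flow-through, against 0.542 ± 0.176 FPKM in the enriched cells, brought it past the filter, so that a gene this low could be tested only because it was high in the flow-through, and its call is no support for a difference of the family. *Psmb11*, the thymic cortex subunit β5t, was below the filter at 0 to 0.0380 FPKM. *Psmc3ip* was at 13.9 ± 2.21 and 14.1 ± 2.06 FPKM (0.02).

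Further genes of the pathway were taken from a list of 51 assembly, ubiquitin, p97, transcription factor and interferon genes, all of which were tested. In the limma fit 3 of the 51 were called higher and 4 lower, against 14.1% and 13.7% of all genes tested, and with the block 4 higher and 12 lower, against 22.2% and 22.7%. Besides *Pomp*, the genes called higher were *Nfyb*, encoding a subunit of the CCAAT-binding NF-Y (28.3 ± 1.44 to 36.1 ± 2.46 FPKM; log2 fold change 0.34, limma adjusted p = 0.0125), and the kinase gene *Jak2* (28.2 ± 2.09 to 35.2 ± 1.58 FPKM; 0.31, limma adjusted p = 0.0188). The largest fall was that of *Nfe2l2*, encoding the oxidant-responsive factor NRF2. It measured 50.7, 35.1, 39.9 and 37.2 FPKM in the flow-through and 24.2, 23.0, 22.4 and 22.4 FPKM in the enriched cells, without overlap (−0.79, SE 0.11; limma adjusted p = 0.00251). *Nfe2l1*, encoding NRF1, the main inducer of proteasome genes when proteasomes are inhibited, was at 23.4 ± 2.54 and 23.3 ± 1.41 FPKM (log2 fold change −0.01).

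The shuttle factor gene *Ubqln4* fell by 0.58 on the log2 scale (limma adjusted p = 0.00843). *Rps27a*, which encodes ubiquitin fused to a ribosomal protein and has close processed copies that could share reads, fell by 0.37 (limma adjusted p = 0.00948). Among the 13 interferon-axis genes, *Jak2* was the only one called without the block. *Tap1*, which lies between *Psmb9* and *Psmb8* in the MHC region, was at 143 ± 27.3 and 168 ± 11 FPKM (log2 fold change 0.25; limma adjusted p = 0.218). The transcription factor gene *Irf1* (0.02) did not pass, nor did *Nlrc5* (0.12), the activator of MHC class I genes.

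Marker genes of T cells and of other cells differed between the libraries in RNA level, and their values are given beside those of the genes above. CD8 T-cell identity genes summed to 1337, 2480, 2144 and 2548 FPKM in the flow-through and to 2542 to 2724 FPKM in the enriched cells, so that flow-through replicate 1, lowest for the immunoproteasome subunits, was also lowest for T-cell genes. Erythroid progenitor genes summed to 934 to 2590 FPKM in the flow-through, highest in replicate 1, and to 200.2 to 844 FPKM in the enriched cells, and 5 of 12 were called lower (9 with the block). NK cell genes, some of which CD8 T cells can also express, summed to 12.1 to 22.7 against 32.7 to 75.6 FPKM with 3 of 4 tested genes called higher in both fits. Dendritic cell genes summed to 12.9 to 21.01 against 29.6 to 61.2 FPKM with 5 of 6 higher in both fits, and proliferation genes to 684 to 1218 against 1092 to 1539 FPKM with 4 of 10 higher (8 with the block). Granulocyte and monocyte genes spanned 696 to 3773 against 960.2 to 4684 FPKM with 1 of 8 tested genes higher (with the block, 4 higher and 1 lower), and B-cell genes 21.1 to 58.5 against 26.6 to 67.0 FPKM with 0 of 5 tested genes called by limma and 0 at an unadjusted p under 0.05 (with the block, 1 was called higher and 1 lower). Over all genes tested, 14.1% were called higher and 13.7% lower, or 22.2% and 22.7% with the block. *Klra8* (mean 0.29 against 2.31 FPKM) and *Xcr1* (0.688 against 4.75 FPKM) passed the filter only through the enriched cells. *Cr2*, the B-cell gene called lower with the block, passed only through the flow-through (1.44 against 0.679 FPKM). Calls of these genes are therefore no support for a difference of their lists. No marker was at 0 in every library. The part of these markers in the proteasome differences was not tested.

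When each library was scaled to the same level of the CD8 T-cell identity genes, the median difference over all genes moved to −0.32 on the log2 scale and that over the proteasome genes to −0.40. *Psmb8* (0.12) and *Psmb9* (0.06) were then the only members above 0, *Psmb10* turned to −0.17, and the calls of *Psmb8*, *Psmd7*, *Psmg1*, *Psmg2* and *Psmg3* were lost. Relative to the all-gene median of that scaling, *Psmb8* stood at 0.45, *Psmb9* at 0.39, *Psmb10* at 0.16, *Psmg1* at −0.48, *Psmg2* at −0.49 and *Psmg3* at −0.65. The scaling applies the same factor to every gene of a library, so subtracting that median largely undoes it. These values therefore restate the unscaled log2 fold changes and are no check on T-cell content.

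**Figure D5:**
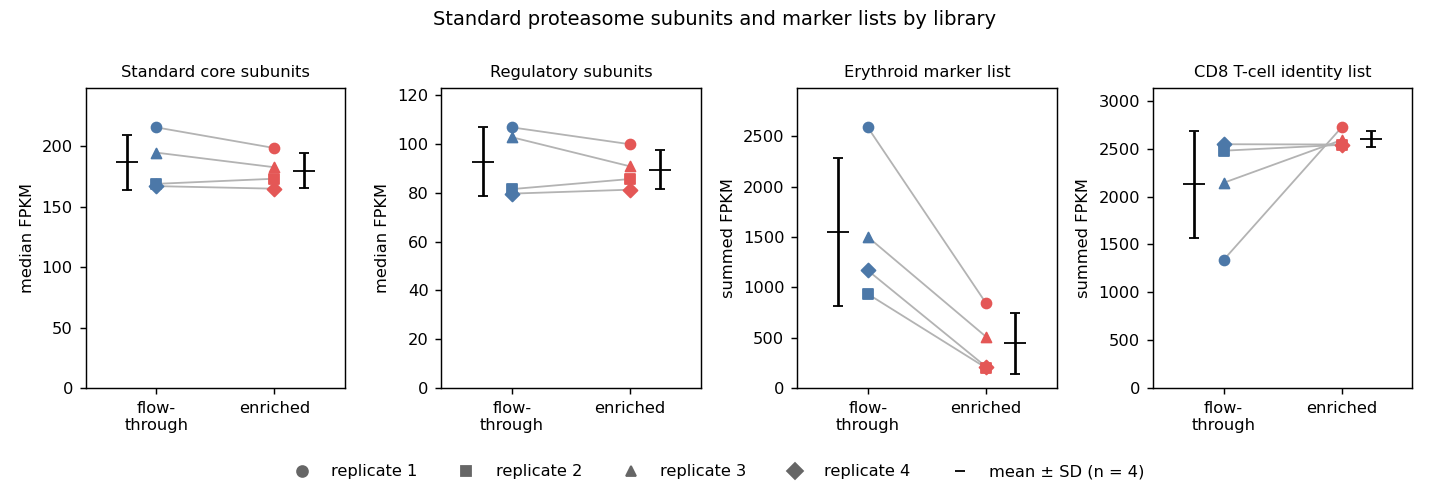
Median FPKM of the standard 20S and of the 19S subunits in each library, shown beside the summed FPKM of erythroid genes and of T-cell markers (CD8 T-cell identity list). Flow-through replicate 1 has the lowest T-cell sum, the highest erythroid sum and the highest 20S and 19S medians.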

How the data were processed

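Poly(A) RNA was sequenced as stranded paired-end libraries. The authors deposited FPKM per gene, made with TopHat and Cufflinks 2.1.1 on mm10 per the labels. Genes averaging 1 FPKM or more were tested on log2(FPKM + 1) with limma 3.58.1 (R 4.3.3; eBayes with a trend, Benjamini-Hochberg over all 12166 genes tested). Depth is unknown from FPKM, and precision rests on the 4 replicates. Whether reads were assigned by strand is not given in the sources used here. Ratios were tested by exact permutation. Members and lists were chosen with earlier results of these data known. Genes were named by role (catalytic, tissue-restricted, activator, inhibitor, chaperone), as called members, as highest and lowest of each ring or cap group, and as the called genes of the related list, of which 1 is not reported here, and further members are named where the block changed their call. Libraries of the same number deviated together from their group means (r = 0.66, 0.589, 0.308 and 0.471 for replicates 1 to 4). The highest r of each flow-through library with an enriched library of another number was 0.202, 0.412, 0.191 and 0.282. The labels state that each of 4 mice gave both fractions, though not that equal numbers mark 1 mouse. Pairs therefore rest partly on this check, and block values are given where they change a call. Alternatives were the block, a pseudocount of 0.1, no filter or one of 5 FPKM, median and T-cell identity scaling, no variance trend, and leaving out each library. Scripts were tested on simulated data. Coordinates are from GENCODE M21, and promoter sequences from RefSeq.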

Additional observations from a re-analysis of the deposited data

Results flagged for a closer look

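Of 106 sets of 4 libraries examined, 3 held a library whose gap to the nearest of the others exceeded Dixon's 95% critical value, where chance gives about 1 in 20, or 5.3 sets. *Psmb10* was at 90.1 FPKM in flow-through replicate 1, where the remaining flow-through values ran from 117 to 121 FPKM. *Psmb3* was at 328 FPKM in enriched replicate 1, against 271 to 278 FPKM in the other enriched libraries, and *Psmd8* was at 148 FPKM in the same library, against 130.1 to 132 FPKM. The cause was not tested.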

How the results depend on the processing

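With the replicate block, the members called higher went from 1 to 3 and those called lower from 5 to 11, and the related genes called lower from 4 to 12; every member called without the block was kept, and 8 were added. Without a filter, 0 members were called higher by limma (3 at an unadjusted p under 0.05) and 3 lower, and 2 related genes lower. Of the 22789 genes then tested, 1669 were called higher and 1283 lower. Median scaling left 3 members called lower, without *Psmd7* and *Psmg2*, and no variance trend left 4, without *Psmd7*. Over all genes, median scaling called 1782 higher and 1539 lower, and the fit without the trend 1684 and 1627. T-cell identity scaling left 0 members called higher and 1 lower, and 0 related genes higher (0 of either higher at an unadjusted p under 0.05). Under it 522 genes were called higher and 927 lower, against 1720 and 1664 as deposited. Leaving out 1 library gave 0 to 2 members higher and 1 to 6 lower, and 2 to 3 related genes higher and 3 to 7 lower. Over all genes tested, those fits called 1124 to 1802 higher and 940 to 1781 lower. The difference of the log2 ratio of *Psmb10* to *Psmb7* ranged from −0.0046, without flow-through replicate 1, to 0.28, that of *Psmb8* to *Psmb5* from 0.20 to 0.58 and that of *Psmb9* to *Psmb6* from 0.23 to 0.61. The cause was not tested. A pseudocount of 0.1 changed no member's call. FPKM values carry no depth, so counting error could not be separated from the spread between mice.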
